A study of Nothobranchius furzeri with 20 samples.

Results

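In livers of 9-week turquoise killifish given rotenone at 1% of the LC50, 62 of 26739 annotated genes had a median level at least 2-fold above the highest median of the 3 other treatment groups. The genes were chosen from these levels. Read counts relative to library size (the unit CPM, with library sizes scaled by TMM factors) were placed on a log2(CPM + 0.5) scale, the median of each group was taken, and a gene was kept when its 9-week 1% median exceeded the highest of the other medians by 1 or more and reached 1 CPM. The difference between the 9-week 1% median and the highest other median is called the gap below. A limit of 300 genes in the rule was not reached. Of the 13378 genes with a 9-week 1% median of 1 CPM or more, the 62 were 0.463%. All statements on how far these genes stood above the other groups describe the selection and carry no test.

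The study sequenced RNA from livers of male turquoise killifish (Nothobranchius furzeri), an annual fish studied for its short life, of the strain MZM-04/10p. There were 4 groups of 5 libraries. Fish of 9 weeks received 0.1%, 1% or 10% of the LC50, the concentration lethal to 50% of animals, and fish of 27 weeks received 1%. Every labelled group received rotenone, so a gene high at 1% stood above other doses or the older age, never above untreated fish. Length and route of exposure are not in the labels, nor is it stated that libraries of a group stem from different animals; the p-values below therefore describe variation among libraries, which may be technical.

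Rotenone blocks complex I, the enzyme that passes electrons from NADH to ubiquinone and pumps protons across the inner mitochondrial membrane. Inhibition slows respiration and can raise mitochondrial reactive oxygen species. Partial inhibition of complex I has been studied in this fish as a modifier of lifespan, and the liver, with its many mitochondria, is also where foreign compounds are metabolised. The design asks how liver transcription responds to dose in young fish and to age at 1 dose. The deposited identifiers (Nfu_g_1 and a number) are not paired with gene names, and 0 of them matched the RefSeq gene table of the assembly NfurGRZ-RIMD1, so no function, chromosome or sequence is given for any gene, and liver markers could not be checked.

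Library depth was 23.6 to 33.9 M counts. Replicate 5 of the 9-week 1% group stood apart from its own group: its levels correlated with those of replicates 1 to 4 at Spearman's rho of 0.753 to 0.795, where these 4 correlated with each other at 0.901 to 0.947. Its TMM factor of 0.659 was the lowest of the 20. To a lesser degree replicate 4 at 9 weeks and 0.1% also stood apart. It correlated with its group at 0.848 to 0.886, where the other replicates of that group correlated with each other at 0.9145 to 0.971. The TMM factor of this library, 1.348, was the highest of the 20. The 9-week 0.1% libraries were deposited in a table of their own, so for that group the table and the dose cannot be told apart, while the 9-week 1%, 10% and 27-week libraries share a table.

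Most of the 62 genes lay close to the threshold. The median gap was 1.27 on the log2 scale, against -0.17 over all 13378 genes, and 14 genes had a gap of 1.5 or more, 6 of 2 or more and 2 of 3 or more. The 2 genes just inside the threshold both had a gap of 1.00, with 9-week 1% medians of 69.3 and 2.50 CPM against highest other medians of 34.3 and 0.997 CPM. The 2 just outside had gaps of 0.999 and 0.995, at 6.98 and 12.1 CPM against 3.24 and 5.80 CPM. With these 2, 45 genes had a gap between 0.9 and 1, and 16 of the 62 lay between 1 and 1.1.

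The genes covered a wide span of abundance, with few counts of exactly 0. Their 9-week 1% medians ran from 1.08 to 1172 CPM with a median of 8.85 CPM; 27 genes reached 10 CPM and 7 reached 100 CPM. The median raw count in this group was at least 28 for every gene, 213 for the middle of the set, and 100 or more for 48 of the 62. In the 15 other libraries 15 of 930 values were 0. Some genes had medians under the offset of 0.5 CPM in all other groups, where the offset narrows the gap. Lengths could be recovered for 55 of the 62 genes and had a median of 2898 bases (quartiles 1517 and 5676), next to 2901 bases (1490 and 4966) over 13512 genes. Per length, the 9-week 1% medians ran from 0.238 to 171 CPM per kilobase with a median of 4.93.

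**Figure D1:**
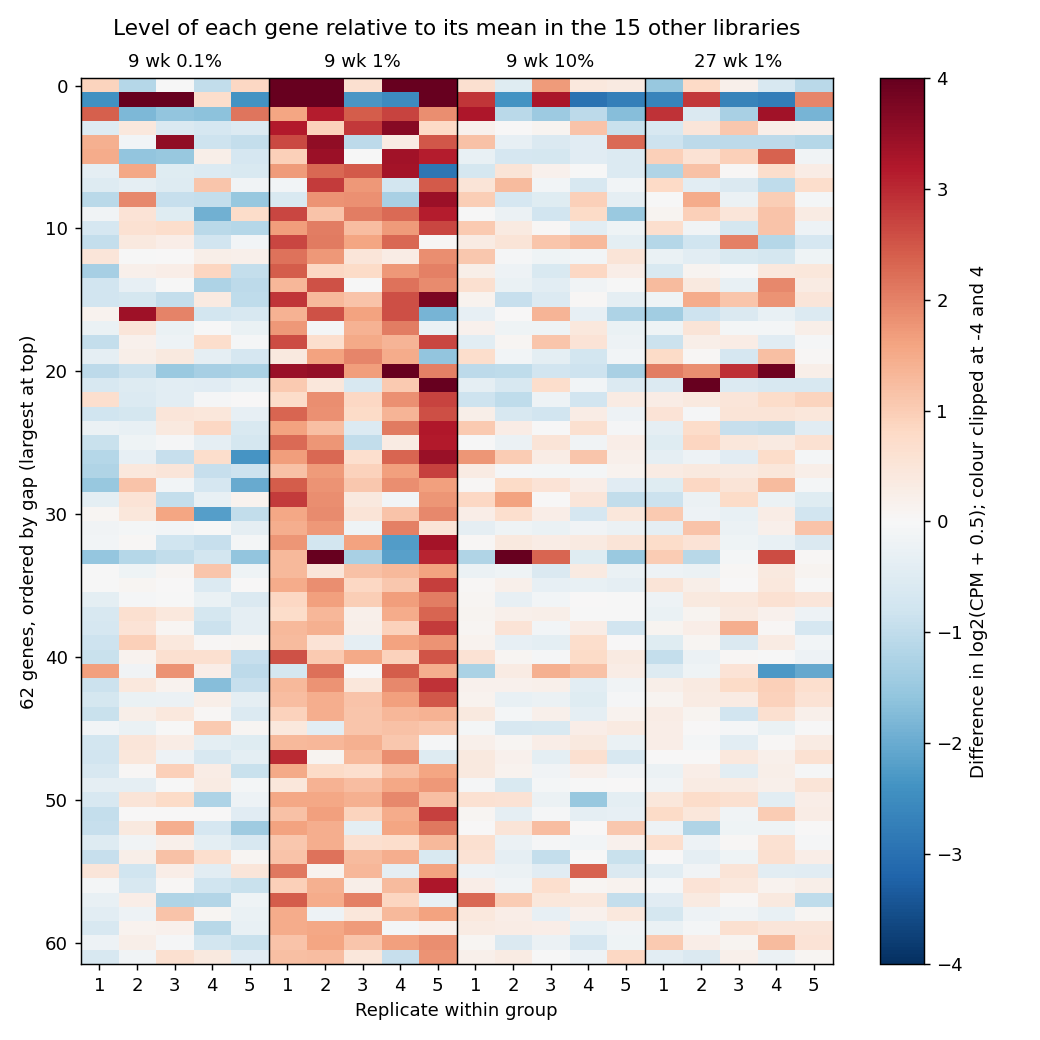
Rows are the 62 genes ordered by gap and columns the 20 libraries by group; colour gives the difference in log2(CPM + 0.5) from the gene's mean in the 15 libraries outside the 9-week 1% group, clipped at -4 and 4. Red fills most of the 9-week 1% block, with paler cells in replicate 3 and the darkest cells, but also some blue ones, in replicate 5.

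The set as a whole separated the 9-week 1% libraries from all others. Its selection favours this, though the rule used group medians and did not require it of each library. The median of the 62 log2 levels was 3.296, 3.25, 2.33, 2.94 and 3.41 in replicates 1 to 5 at 9 weeks and 1%. It was 0.77 to 1.68 in the 5 libraries at 0.1%, 1.25 to 1.83 at 10% and 1.45 to 1.803 in the 27-week 1% libraries. Replicate 3 was the lowest of the 9-week 1% group and still above the other 15 libraries. The median over all 13378 genes moved only between 3.39 and 3.54 across the 20 libraries. The 62 genes took 0.351% ± 0.110 of all counts at 9 weeks and 1% (SD, n = 5), against 0.0877% ± 0.0380 at 0.1%, 0.0921% ± 0.0126 at 10% and 0.112% ± 0.023 at 27 weeks and 1% (SD, n = 5 each). Abundant genes weigh most in this share. A 9-week 1% median of 100 CPM was reached by 7 of the 62, while the median over the 62 was 8.85 CPM. The most abundant gene of the set (1172 CPM) stood at 2419 CPM in replicate 4 and at 32.0 CPM in replicate 5. In bulk liver, a change in RNA per cell and a change in the number of cells of a type cannot be told apart.

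**Figure D2:**
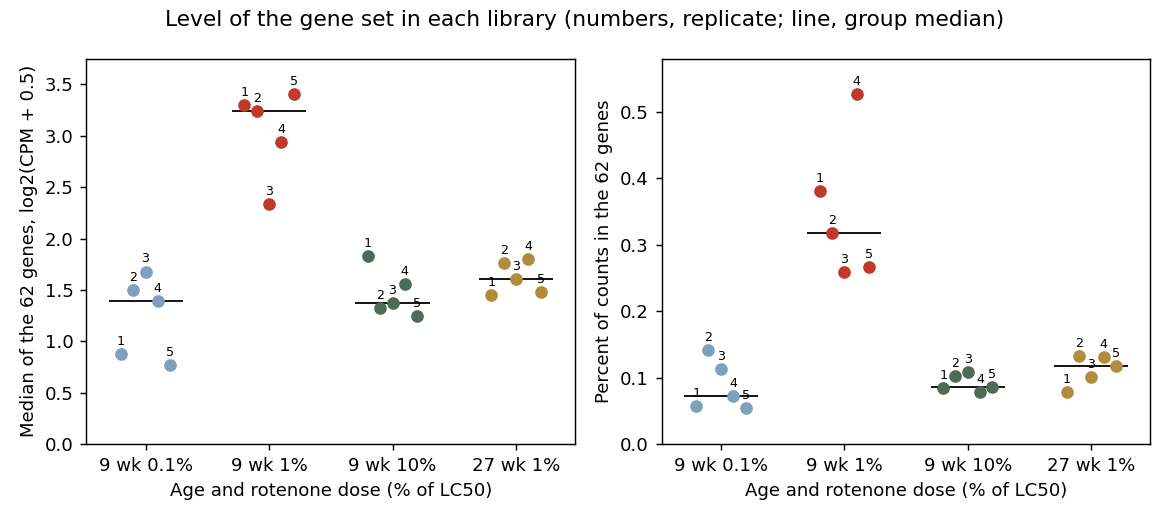
Points are libraries, numbered by replicate, with a line at the group median; the left axis is the median log2(CPM + 0.5) of the 62 genes and the right axis their percent of all counts. The 9-week 1% libraries lie between 2.33 and 3.41 on the left axis, and the 15 others between 0.77 and 1.83.

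Among the 62 genes, the group nearest to 9-week 1% was most often the older group at the same dose. The counts below use the medians of the rule and were not taken over all genes. Whether they are particular to this set was therefore not tested. The second-highest median belonged to 27-week 1% livers in 33 of the 62 genes, to 10% in 21 and to 0.1% in 8. The median difference of group medians was accordingly 1.44 on the log2 scale to 27 weeks, 1.58 to 10% and 1.79 to 0.1%. Against 0.1%, 24 genes stood 4-fold or more apart, against 14 for 10% and 13 for 27 weeks.

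Single libraries overlapped far more than medians did. In 9 of the 62 genes all 5 libraries at 9 weeks and 1% lay above all 15 others, a pattern found in 0.777% of the 13378 genes (104 genes). In 15 genes 4 of the 5 libraries did so, in 24 genes 3, in 3 genes 2, in 5 genes 1 and in 6 genes 0. The counts for 4 or fewer libraries were not taken over all genes, so they describe the set only. The 20 libraries peaked in the 9-week 1% group in 56 of the 62 genes, but also in 48.3% of all 13378 genes. Among the 9 fully separated genes the gap was 1.07 to 1.66, and the lowest 9-week 1% library was 1.07 to 1.42 times the highest other library.

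Nfu_g_1_006352 had the largest gap of these 9 genes. It stood at 45.3, 58.2, 33.2, 46.3 and 90.9 CPM in replicates 1 to 5 at 9 weeks and 1%. At 0.1% it stood at 8.38, 21.2, 22.7, 6.23 and 5.99 CPM, at 10% at 28.9, 17.7, 14.302, 10.25 and 12.1 CPM, and at 27 weeks at 22.4, 12.32, 8.33, 30.9 and 11.8 CPM. The groups did not overlap, but the lowest 9-week 1% library (replicate 3) lay just above the highest 27-week one. Nfu_g_1_004406 came next, with 11.1, 7.78, 3.42, 5.46 and 13.27 CPM at 9 weeks and 1%. Its other libraries held 0.845 to 2.73 CPM at 0.1%, 0.874 to 2.35 CPM at 10% and 1.75 to 2.88 CPM at 27 weeks. For both genes replicate 5 was highest and replicate 3 lowest of the 9-week 1% group.

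The largest gap of the set, 7.13, belonged to Nfu_g_1_007386, described here after its values were seen. It held 782, 245, 612 and 848 CPM in replicates 1, 2, 4 and 5 at 9 weeks and 1% but 4.58 CPM in replicate 3. The 15 other libraries held 0.640 to 10.0 CPM. Replicate 3 thus lay within the range of the other groups, and the other 4 lay above all of them. Its recovered length was 4503 bases.

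A further pair of genes alternated between a low and a high level within groups. They were singled out after their values were seen, as the members whose highest library was 16-fold or more above the lowest in 3 or 4 of the groups on the log2(CPM + 0.5) scale, where the offset narrows the range of low genes; 0.157% of all 13378 genes had such ranges. Nfu_g_1_004984 stood at 65.2, 66.7 and 65.7 CPM in replicates 1, 2 and 5 at 9 weeks and 1% and at 0.280 and 0.186 CPM in replicates 3 and 4. At 10% it stood at 27.8, 0.246, 36.9, 0 and 0.0805 CPM, at 27 weeks at 0.120, 27.3, 0.113, 0.0758 and 14.6 CPM, and at 0.1% at 0.220, 124, 80.8, 5.83 and 0.244 CPM. High and low libraries thus occurred in every group, and its place in the set rests on 3 high libraries of 5. Nfu_g_1_013787 stood at 6.74 to 20.8 CPM in all 5 libraries at 9 weeks and 1%. Elsewhere it was at 10.2 and 12.2 CPM in 2 libraries at 0.1%, 22.31 CPM in 1 library at 10% and 17.6 and 24.2 CPM in 2 at 27 weeks, and at 1.117 CPM or less in the remaining 10. Its group medians therefore differed by the number of high libraries, not by their level.

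**Figure D3:**
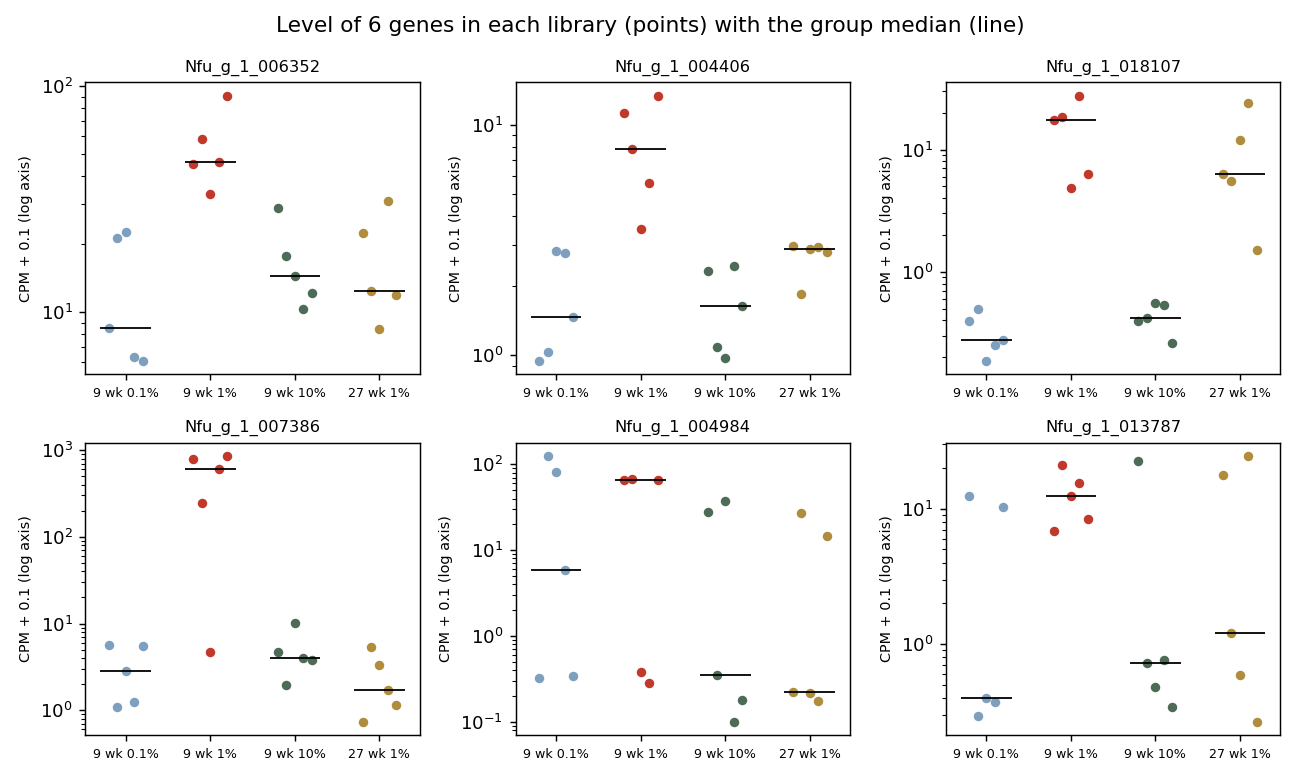
Each panel shows 1 gene, with CPM + 0.1 on a log axis for every library (points) and the group median (line). In the upper left and upper middle panels the 9-week 1% points lie above all others, by little in the upper left panel. Nfu_g_1_018107 is also high at 27 weeks. The lower panels show 1 low replicate or a low and a high level within groups.

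Within the 9-week 1% group the 62 genes were uneven. By scaled level, replicate 5 was most often the highest library and replicate 3 most often the lowest. Replicate 5 was the highest of the 5 libraries for 31 genes (50%, against 37.1% of all 13378 genes) and the lowest for 11 (17.7%, against 35.9%). It was 2-fold or more above the median of the other 4 libraries for 22 genes and 2-fold or more below it for 13. Replicate 3 was the lowest library for 29 genes (46.8%, against 16.4% of all genes). It was 2-fold or more below the median of the other 4 libraries for 26, and below the highest median of the other groups for 16. The counts at 2-fold and below the other groups' medians were not taken over all genes. In percent of all counts, which TMM does not scale, the 62 genes held 0.3815, 0.3184, 0.2598, 0.5276 and 0.2661 in replicates 1 to 5. By this share replicates 3 and 5 were both the lowest of the group, and abundant genes weigh most in it. The median standard deviation of a log2 level was 0.93 over the 62 genes in this group, 0.75 without replicate 5, 0.59 at 0.1%, 0.48 at 10% and 0.47 at 27 weeks. Over all 13378 genes it was 0.54, 0.33, 0.35, 0.25 and 0.25. Outside the 9-week 1% group the 62 genes were of lower level than the middle of all genes, as the library medians above show, and spread was not compared at matched level.

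After each group's mean was removed, pairs of the 62 genes had a median correlation of 0.109 over the 15 libraries of the other groups, next to 0.00881 for pairs of all genes. A correlation of 0.5 or more was found in 13.9% of these pairs and in 9.60% of all pairs. Within the 5 libraries at 9 weeks and 1% the median was 0.217 (0.21 without replicate 5), next to 0.00136 for all genes, and 31.4% of member pairs reached 0.5, against 28.2% of all pairs. A negative correlation of 0.5 or more in size was found in 3.33% of member pairs and 8.15% of all pairs over the 15 libraries. Within the 5 libraries at 9 weeks and 1% it was found in 17.6% of member pairs and 28% of all pairs. Genes of 1 library share its depth and scaling, so these values are a description.

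The same measure was then taken in libraries whose levels had no part in choosing the genes. The TMM scaling used all 20 libraries, the left-out one included. Each 9-week 1% library was left out in turn, genes were selected by the same rule on the other 19, and the left-out library was compared with the highest median of the other groups. Over the 5 libraries the selected genes had a median difference of 0.53 on the log2 scale (0.14 to 0.69; SD 0.23), while the median gap in the selecting libraries was 1.20. Left-out replicate 1 lay above the highest other median for 66 of 77 genes selected without it (85.7%, against 34.1% of all genes), replicate 2 for 58 of 71 (81.7%, against 32.1%) and replicate 3 for 70 of 114 (61.4%, against 31.2%). Replicate 4 did so for 54 of 79 (68.4%, against 40.8%), and replicate 5 for 29 of 49 (59.2%, against 42.5%). The share above the highest other median was over 50% in each left-out library, at a median difference under the gap in the selecting libraries. The median difference depended on the libraries used. With replicate 2 removed from the data throughout, it was -0.086 over the 4 others. With replicate 1, 3, 4 or 5 removed in the same way, it was 0.44, 0.34, 0.34 and 0.41. Fewer 9-week 1% libraries took part in the selection in each of these runs, and the shares were not counted again.

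The full 2-fold difference was found again for a minority. Left-out replicate 1 was 1 or more above the highest other median for 19 of its 77 genes (24.7%, against 2.51% of all genes), and replicate 2 for 18 of 71 (25.4%, against 1.1%). For replicate 3 it was 12 of 114 (10.5%, against 0.764%), for replicate 4 it was 21 of 79 (26.6%, against 2.63%), and for replicate 5 it was 18 of 49 (36.7%, against 14.8%). The other groups' medians entered both the selection and this measurement, and the rule favours genes in which they happen to be low. No test is given for these shares, and the all-gene shares beside them were not matched to the selected genes in spread or level.

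**Figure D4:**
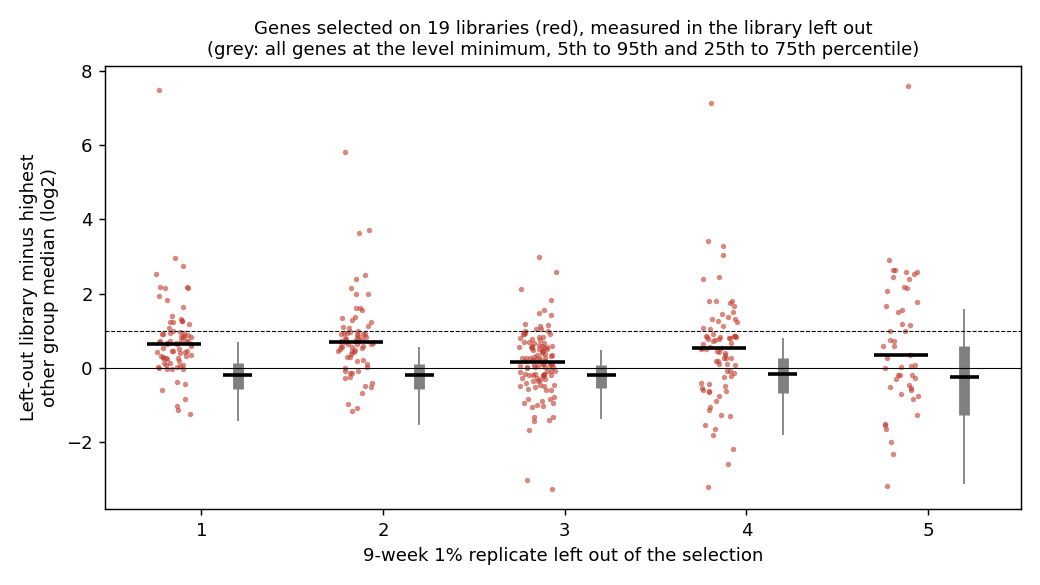
For each 9-week 1% replicate, red points are genes selected without it, placed by that replicate's level minus the highest other group median (log2 axis); grey bars show the 5th to 95th and 25th to 75th percentiles of all genes and black lines the medians. The medians of the red points lie between 0.14 and 0.69, under the dashed line at 1 that marks the selection threshold.

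Membership itself depended on single libraries. Of the 62 genes, 20 were selected again in every one of the 20 tables that leave out 1 library, 23 in all 5 tables without a 9-week 1% library and 44 in all 15 tables without another library. The 20 had a median gap of 1.5 and the other 42 one of 1.15. Without replicate 5, 33 of the 62 kept a gap of 1 or more at a median gap of 1.02; without replicate 3, 52 did at a median of 1.33. Of the 9 genes with full separation, 5 were among the 20. Applied anew, the rule gave 49 genes without replicate 5 and 114 without replicate 3.

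By number, genes raised in only 1 group were not particular to 9-week 1% livers. The same rule gave 68 genes for 0.1%, 70 for 10% and 105 for 27 weeks and 1%. In left-out libraries the genes of those sets had median differences of 0.47, 0.70 and 1.02 on the log2 scale, next to 0.53 for 9-week 1%. Over the left-out libraries these ran from -0.022 to 1.56 for 0.1% and from -0.7 to 0.886 for 10%. For 27 weeks and 1% the range was 0.409 to 1.37, and for 9-week 1% it was 0.142 to 0.688. Genes lowered only in 9-week 1% livers by the mirrored rule numbered 180, against 57, 51 and 82 for 0.1%, 10% and 27 weeks.

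How the 62 genes differed among the other 3 groups was tested in the 15 libraries outside the 9-week 1% group, so that the group in which the genes are high took no part in the filter or the spread. These 15 libraries also had a part in the choice, since the rule set an upper limit on each of their group medians, so the tests are not independent of it and the medians over the genes are descriptions. The 27-week fish received 1% of the LC50 and the 9-week fish compared with them 0.1% or 10%. Age and dose therefore change together in each comparison with 27 weeks and cannot be told apart. Of the 62 genes, 58 passed the filter on low counts among 16276 genes. At 27 weeks and 1%, 10 of them were higher than at 9 weeks and 0.1% and 2 were lower (17.2% and 3.45%; edgeR quasi-likelihood test, adjusted p under 0.05 over all genes). Among all genes 10.4% were higher, 10.7% lower and 21% either. The median log2 change was 0.48 over the 58 genes and -0.06 over all genes. With all 20 libraries in the fit 5 members rose and 2 fell, and calls among all genes fell from 21% to 11.8% in either direction.

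Against 10%, 7 members rose and 2 fell at 27 weeks (12.1% and 3.45% of the 58), where 13.9% of all genes rose, 9.95% fell and 23.8% did either. The share higher was thus near the background. The median log2 change was 0.11, against -0.02 over all genes. Both comparisons share the 27-week libraries. With all 20 libraries in the fit 3 rose and 1 fell, where 14.5% of all genes were called. With limma voom 5 rose and 0 fell, where 23.8% of all genes were called (3866 genes, against 3877 by edgeR).

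Nfu_g_1_018107 stood above 0.1% and 10% in both 1% groups, with a lower median at 27 weeks than at 9 weeks. It stood at 17.32, 18.2, 4.75, 27.5 and 6.16 CPM at 9 weeks and 1% and at 6.24, 5.47, 11.9, 24.1 and 1.42 CPM at 27 weeks. At 0.1% it was at 0.0865 to 0.393 CPM and at 10% at 0.161 to 0.455 CPM. All 5 libraries at 27 weeks lay above all at 0.1% and 10%, and they overlapped with those at 9 weeks and 1%. From 0.1% to 27 weeks it rose by 5.48 ± 0.68 on the log2 scale (SE; adjusted p = 9.34e-05 by edgeR), and from 10% by 4.86 ± 0.65 (SE; adjusted p = 9.73e-05 by edgeR). Its gap of 1.403 is the log2 difference between the medians of the 2 ages at 1%, with 9 weeks the higher. The gene was selected again in 15 of the 20 tables that leave out 1 library. Of the 5 tables without a 9-week 1% library, 2 selected it. The rises from 0.1% and 10% change age and dose together.

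Nfu_g_1_001712 was higher at 27 weeks than at 0.1%. It stood at 5.24, 2.64, 1.43, 8.67 and 2.48 CPM there, at 0.523 to 1.86 CPM at 0.1%, and at 1.85 to 13.4 CPM at 9 weeks and 1%. Higher in 4 of 5 libraries than any at 0.1%, it rose by 1.93 ± 0.48 on the log2 scale (SE; adjusted p = 0.0106 by edgeR). Against 10%, where it stood at 1.29 to 3.25 CPM, the groups overlapped and the log2 difference of 1.09 ± 0.46 missed the threshold (SE; adjusted p = 0.104 by edgeR). Nfu_g_1_008893 stood at 4.96, 3.72, 4.90, 14.1 and 2.05 CPM at 27 weeks and at 1.22 to 1.81 CPM at 10%. The ranges did not overlap, and the log2 difference was 2.02 ± 0.69 (SE; adjusted p = 0.0455 by edgeR). Without replicate 4 at 27 weeks its change was 1.42 (edgeR adjusted p = 0.149), and leaving out any other library of both groups except replicate 5 at 27 weeks also ended the call (0.0538 to 0.0882), as did all 20 libraries in the fit (0.0786) and limma voom (0.0802). DESeq2 kept the call of Nfu_g_1_008893 against 10% (adjusted p = 0.0103). Against 0.1%, at 0.442 to 7.35 CPM, the groups overlapped and the log2 difference was 1.22 ± 0.67 (SE; adjusted p = 0.216 by edgeR).

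Nfu_g_1_021642 was near absent in the 27-week 1% libraries. The 27-week libraries held 0 to 3 counts of it, or 0 to 0.120 CPM, while those at 0.1% stood at 2.46, 0.540, 12.5, 0.125 and 0.0697 CPM and those at 10% at 1.99, 0.386, 0.245, 0.313 and 4.83 CPM. At 9 weeks and 1% it ranged from 0.0349 to 12.4 CPM, with replicate 3 as low as the 27-week libraries. The fitted log2 changes to 27 weeks were -6.05 ± 1.57 from 0.1% (SE; edgeR adjusted p = 0.0134; lower than all in 4 of 5 libraries) and -5.05 ± 1.56 from 10% (SE; edgeR adjusted p = 0.0285; 5 of 5). DESeq2 gave -6.13 (adjusted p = 1.8e-05) and -5.10 (adjusted p = 0.000421). They were -3.64 (adjusted p = 0.183) and -3.98 (adjusted p = 0.134) with limma voom, and -4.08 without replicate 3 at 0.1% by edgeR. The call against 10% also ended without replicate 5 at 10% (log2 change -3.94) or any of replicates 2 to 5 at 27 weeks (edgeR adjusted p = 0.0600 to 0.0787).

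A further pair of members was called lower at 27 weeks and 1% in 1 comparison each, again with age and dose changing together. In the other comparison the log2 differences were -0.87 ± 0.71 for Nfu_g_1_007075 against 10% (SE; adjusted p = 0.423 by edgeR) and -0.76 ± 0.28 for Nfu_g_1_005359 against 0.1% (SE; adjusted p = 0.0661 by edgeR). Nfu_g_1_007075 stood at 26.7, 259, 96.9, 14.2 and 15.4 CPM at 0.1% and at 8.84, 13.4, 15.9, 19.6 and 16.29 CPM at 27 weeks; the log2 difference was -2.47 ± 0.74 (SE; adjusted p = 0.0282 by edgeR). Only 2 of 5 libraries at 27 weeks lay below all at 0.1%. Without replicate 2 at 0.1%, the highest library of that group, the change was -1.36 (edgeR adjusted p = 0.123). The call also ended with limma voom (adjusted p = 0.115), without replicate 3 at 0.1% and without replicate 1, 2, 3 or 5 at 27 weeks (edgeR adjusted p = 0.0520 to 0.0630). It was kept with DESeq2 (adjusted p = 0.00177) and with all 20 libraries in the edgeR fit (adjusted p = 0.0465). Nfu_g_1_005359 stood at 5.72, 2.32, 2.10, 2.19 and 3.70 CPM at 10% and at 1.92, 1.71, 1.43, 1.29 and 2.12 CPM at 27 weeks. It was lower in 4 of 5 libraries. The log2 difference was -0.92 ± 0.28 (SE; adjusted p = 0.0267 by edgeR), and -0.92 with DESeq2, which kept the call (adjusted p = 0.00984). It was -0.58 without replicate 1 at 10% (edgeR adjusted p = 0.0885), and the call ended as well without replicate 5 at 10%, without replicate 3 or 4 at 27 weeks (0.0559 to 0.0610), with all 20 libraries in the fit (0.101) and with limma voom (0.0574).

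Between 0.1% and 10% at 9 weeks, the lowest and highest dose, edgeR called 0 of the 58 genes, where 0.043% of all 16276 genes rose at 10%, 0.16% fell and 0.203% did either. Before adjustment, 6 of the 58 genes and 12.2% of all genes had p under 0.05. DESeq2 called 1 member, where it called 3.14% of all genes with an adjusted p (488 genes), and limma voom called 0, against 0.0922% of all genes (15 genes). The 1 gene, Nfu_g_1_002020, is named after its values were seen. It stood at 1.26, 81.9, 20.1, 2.39 and 0.965 CPM at 10% and at 0.871 to 1.92 CPM at 0.1%, with 3 of 5 libraries above all at 0.1%. Its log2 difference was 4.02 by DESeq2 (adjusted p = 0.00934) and 3.99 ± 1.17 by edgeR (SE; adjusted p = 0.163). The median log2 change was 0.24 over the 58 genes and -0.05 over all genes, and 40 of the 58 (69%) had a positive change, against 43.6% of all genes. A miss at this threshold does not show that the doses acted alike on these genes.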

How the data were processed

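The data are 20 liver RNA libraries in 4 groups of 5. Gene-level raw counts were deposited in 2 tables. The submitters' processing notes name the tools featureCounts 1.4.6-p4, STAR 2.4.1d and CASAVA 1.8.2; strand use, annotation, build and settings were not given in the sources used here. Overlapping or near-identical genes are therefore uncertain. Another 10 columns belong to no listed sample and were not used. The authors also deposited RPKM-labelled values, treated as a score because their library totals repeat down the rows with a period of 35; they served only to recover gene lengths from values with 100 or more counts. The chi-square per degree of freedom was 54.8 or more in 40 replicate pairs, which exceeds sampling noise in each.

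The tables were joined and scaled with TMM over 20 libraries (edgeR 4.0.16, R 4.3.3). The rule for choosing genes and all lists were set with earlier results of these data known. Comparisons among the other groups used filterByExpr, TMM, a quasi-likelihood fit of 15 libraries with 1 mean per group, two-sided F-tests and Benjamini-Hochberg adjustment at 0.05; the standard error was the absolute log2 change divided by the square root of F. CPM printed come from the scaling of all 20 libraries. Replicate numbers follow the sample list and pair nothing. Named were the 2 members with the largest gap among those with full separation, and up to 2 higher and 2 lower called members per comparison with the largest change; any other named gene was chosen after its values were seen. Alternatives were DESeq2 1.42.0, limma 3.58.1 voom, other scalings, offsets, filters and fits, and each library left out. The scripts were tested on simulated data.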

Additional observations from a re-analysis of the deposited data

Results flagged for a closer look

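Dixon's ratio was taken in 4 groups for 10 quantities: the set's median level, its percent of counts, and the CPM of 8 named genes. In 5 of 40 cases 1 library lay far from the other 4 of its group. CPM need not be normally distributed and the 8 genes were chosen from these libraries, so no chance rate is set beside this count. Nfu_g_1_004406 was at 1.75 CPM in replicate 2 at 27 weeks, against 2.70 to 2.88 CPM in the others. Nfu_g_1_001712 was at 3.25 CPM in replicate 1 at 10%, against 1.29 to 1.85 CPM. Nfu_g_1_021642 was at 12.5 CPM in replicate 3 at 0.1%, against 0.0697 to 2.46 CPM. Nfu_g_1_007075 was at 62.3 CPM in replicate 3 at 10%, against 10.0 to 24.5 CPM, and Nfu_g_1_008893 at 14.1 CPM in replicate 4 at 27 weeks, against 2.05 to 4.96 CPM. No cause was tested.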

How the results depend on the processing

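The number of genes meeting the rule rose from 62 to 101 with an offset of 0.1 (all 62 included) and fell to 41 with an offset of 1 (all among the 62); it was 62 with DESeq2 size factors (61 shared), 62 with no minimum CPM and 43 with a minimum of 5 CPM. With each library left out it lay between 49 (without replicate 5 of the 9-week 1% group) and 114 (without its replicate 3). Full separation held for 9 to 18 of the 62 genes with each library left out, and for 10 with DESeq2 size factors. The 18 were found without replicate 3 of the 9-week 1% group. Without its replicates 1, 2, 4 and 5 the counts were 10, 12, 9 and 11, and fewer libraries had to be separated each time. Under these alternatives full separation was not counted over all genes. With all 20 libraries and the main scaling it held for 0.777% of the 13378 genes. The median difference in left-out libraries was 0.53 with DESeq2 size factors, 0.63 and 0.52 with offsets of 0.1 and 1, and -0.086 to 0.72 with another library removed. It was lowest without replicate 2 of the 9-week 1% group, and 0.34 to 0.44 without any other library of that group. Only 3 libraries of that group selected in each of these cases.

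Called members at 27 weeks against 0.1% numbered 12; there were 14 with DESeq2, 12 with RLE scaling and 12 with no filter, 10 with limma voom, 7 with all 20 libraries in the fit, 7 with only both groups, 7 of 44 tested among genes chosen without replicate 5 of the 9-week 1% group, and 7 to 13 with each library left out (7 without replicate 2 or 5 at 27 weeks or 5 at 0.1%). Against 10% they numbered 9, with 12 for only both groups, 10 for DESeq2, 9 for RLE scaling, 8 of the 44, 7 with no filter, 5 for limma voom, 4 for all 20 libraries and 4 to 9 with each left out (4 without replicate 4 at 27 weeks, 5 without replicate 5 at 10%). For 10% against 0.1% they numbered 0, with 1 by DESeq2 and 0 to 1 with each left out (1 without replicate 4 at 0.1%). All genes called moved too, between 1952 (all 20 libraries) and 4198 (DESeq2) against 0.1%, where they numbered 3422, and between 2388 (all 20 libraries) and 4800 (only both groups) against 10%, where they numbered 3877. Among the 20 genes selected in every table, an alternative chosen after seeing the data, 2, 2 and 0 of 19 tested were called. Of 104 values for the named genes' changes under alternatives, 73 kept the call, 31 lost it and 0 reversed. The cause of these shifts was not tested. No paired analysis was possible because the labels give no shared replicate numbers.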
